A study of Mus musculus with 4 samples.

Results

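The small leucine-rich proteoglycans are secreted matrix proteins, and 7 of their genes were followed here in activated satellite cells with and without HDAC4: Bgn, Dcn, Lum, Fmod, Ogn, Aspn and Prelp. They were taken by gene name, 7 of 43496 gene entries in each library table, and the family was chosen by the measured Bgn values, which had stood out in an earlier comparison of HDAC4 KO with control in these same libraries. The values of Bgn between the groups are therefore given as a description, with no test. Satellite cells, which are resident muscle stem cells, were sorted from 4-week-old C57BL/6 mice of the genotype HDAC4fl/fl Pax7CE/+ Cre, and RNA was sequenced after 24 h in growth medium. HDAC4 KO mice had received tamoxifen (TMX), which switches on the recombinase, and control mice had received vehicle, with 2 libraries per group numbered 3 and 4. The recombinase sits in the Pax7 gene and is driven by its promoter, so the cells of both groups carried a single working Pax7 allele. No library of TMX-treated cells without the recombinase was used here, and TMX and the loss of HDAC4 cannot be told apart. The methods list antibodies to integrin alpha 7, Sca1, CD45, CD31 and Ter119 for the sort by flow cytometry. The labels do not say whether the libraries of a group came from separate animals, so p-values cover just the spread between the libraries.

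In these proteoglycans a core of leucine-rich repeats binds collagen fibrils, and most cores carry glycosaminoglycan chains. Class I (Bgn, Dcn and Aspn) has members with chondroitin or dermatan sulfate chains, class II (Lum, Fmod and Prelp) has members with keratan sulfate chains, and Ogn belongs to class III. In skeletal muscle they are made largely by fibroblasts and tendon cells, and muscle cells also make biglycan and decorin. Biglycan and decorin bind TGF-beta, and soluble biglycan engages Toll-like receptors on innate immune cells.

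The values are FPKM, fragments per kilobase of transcript scaled to the mapped fragments of the library, which allow levels to be set side by side between genes. Read depth cannot be read from them, and precision is given by the bounds that Cufflinks put on each value, whose median distance from the estimate was 6.60% to 8.21% of it by library. Hdac4, the targeted gene, was at 1.58 and 2.36 in the HDAC4 KO libraries, against 5.04 and 5.85 in the controls, where a power of 10 common to the 4 values was not fixed. Both HDAC4 KO libraries were lower than both controls, in the direction of the label. Its difference was -1.13 ± 0.19 on the log2(FPKM + 1) scale (SE; limma adjusted p = 0.203 among all genes and 0.0470 among protein-coding genes). Among satellite cell markers, Myod1, a myogenic transcription factor, was at 563 and 530 FPKM in HDAC4 KO against 633 and 833 in controls, and Itga7, an antibody target of the sort, was at 124 and 146 against 127 and 149. Of the same list, Myf5 had a log2 difference of -0.29, Des of 0.45 and Sdc4 of 0.48 (limma adjusted p = 0.316, 0.244 and 0.309), so that these markers lay on both sides of 0. The quiescence-linked markers Calcr and Chodl lay between 0.0436 and 0.382 FPKM in the 4 libraries. For genes whose common power of 10 was not fixed, which here include Myf5, Des, Sdc4, Lyz2, Ctgf, Mmp2, Mmp9, Gsn, Acta2 and Tagln, the log2 difference also depends on that power through the added 1. Correlations between libraries, taken across 11918 genes that are not independent replicates, were 0.959 to 0.968. Control 3 stood apart from the other libraries in markers of other cell types, which are given below beside the genes they moved with.

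Bgn encodes biglycan, a class I proteoglycan of the fibril surface, and was by far the most abundant of the family. It was at 148.6 and 146.7 FPKM in HDAC4 KO 3 and 4, against 75.3 and 72.6 FPKM in control 3 and 4. Both HDAC4 KO libraries lay above both controls, the Cufflinks bounds of the groups (140.1 to 155.3 in HDAC4 KO, 68.4 to 79.1 in control) did not meet, and the libraries of each group lay close together. The mean was 147.7 ± 1.38 FPKM in HDAC4 KO and 74.0 ± 1.91 FPKM in control (SD, n = 2 each), a ratio of 1.996 and a log2 difference of 0.99 ± 0.08 (SE). Of the 11918 genes averaging at least 1 FPKM, 98.4% had a difference no larger. Since Bgn was picked by this same contrast, its rank and the split between the groups are descriptions only. The difference was 1.01 without control 3 and 0.96 without control 4.

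Bgn lies on the X chromosome (GRCm38, 73483602 to 73495933, plus strand), and the libraries differed in their sex-linked transcripts. Xist, which is made from the inactive X of female cells, was at 21.0 and 62.4 FPKM in HDAC4 KO 3 and 4, against 58.8 and 2.56 FPKM in control 3 and 4. The Y-linked Eif2s3y was at 7.62 and 0.229 FPKM in HDAC4 KO 3 and 4, against 3.22 and 14.8 FPKM in control 3 and 4. The libraries of a group thus differed in their levels of these transcripts. Bgn was at 148.6 and 146.7 FPKM in HDAC4 KO 3 and 4, and at 75.3 and 72.6 FPKM in control 3 and 4. With 2 libraries per group, the part of sex in these values was not tested. In bulk RNA, fewer cells of a type and less RNA per cell cannot be told apart.

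The sequence before the start site of Bgn is shown beside that of Aspn, whose levels followed another pattern across the libraries. RefSeq promoters on GRCm38.p6 were matched for 5 of the 7 genes (Bgn, Fmod, Ogn, Aspn and Prelp). The 250 bases before the annotated start are given from 5′ to 3′, chrX:73483351-73483600 (plus strand) for Bgn and chr13:49544193-49544442 (plus strand) for Aspn, with matches to the GC box letters GGGCGG and the TATA letters TATAAA, on either strand, in capitals:
Bgn: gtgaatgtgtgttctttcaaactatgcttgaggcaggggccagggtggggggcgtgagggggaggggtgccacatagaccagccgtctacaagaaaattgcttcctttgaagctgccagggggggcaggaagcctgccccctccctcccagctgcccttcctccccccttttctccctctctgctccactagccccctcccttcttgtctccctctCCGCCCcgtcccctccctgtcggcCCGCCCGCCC
Aspn: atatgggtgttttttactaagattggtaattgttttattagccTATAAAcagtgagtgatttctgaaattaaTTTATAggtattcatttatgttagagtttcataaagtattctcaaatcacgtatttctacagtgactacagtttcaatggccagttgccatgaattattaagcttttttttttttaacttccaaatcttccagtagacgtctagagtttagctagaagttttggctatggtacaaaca
The Bgn stretch held 3 GC box matches, the last pair overlapping, and no TATA match, with 64.4% G and C. The Aspn stretch held 2 TATA matches and no GC box match, with 30.0% G and C. Over all 32851 promoters of this length the median was 52.4% G and C, a GC box match was present in 32.7% and a TATA match in 12.4%. The Ogn stretch also held 2 TATA matches, which overlap each other on opposite strands, and those of Fmod and Prelp held neither motif. The binding motif of MEF2, the transcription factor family that HDAC4 is known to repress, was found in none of the 5 stretches and in 2.92% of all promoters. These are matches of letters in a fixed window only.

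**Figure D1:**
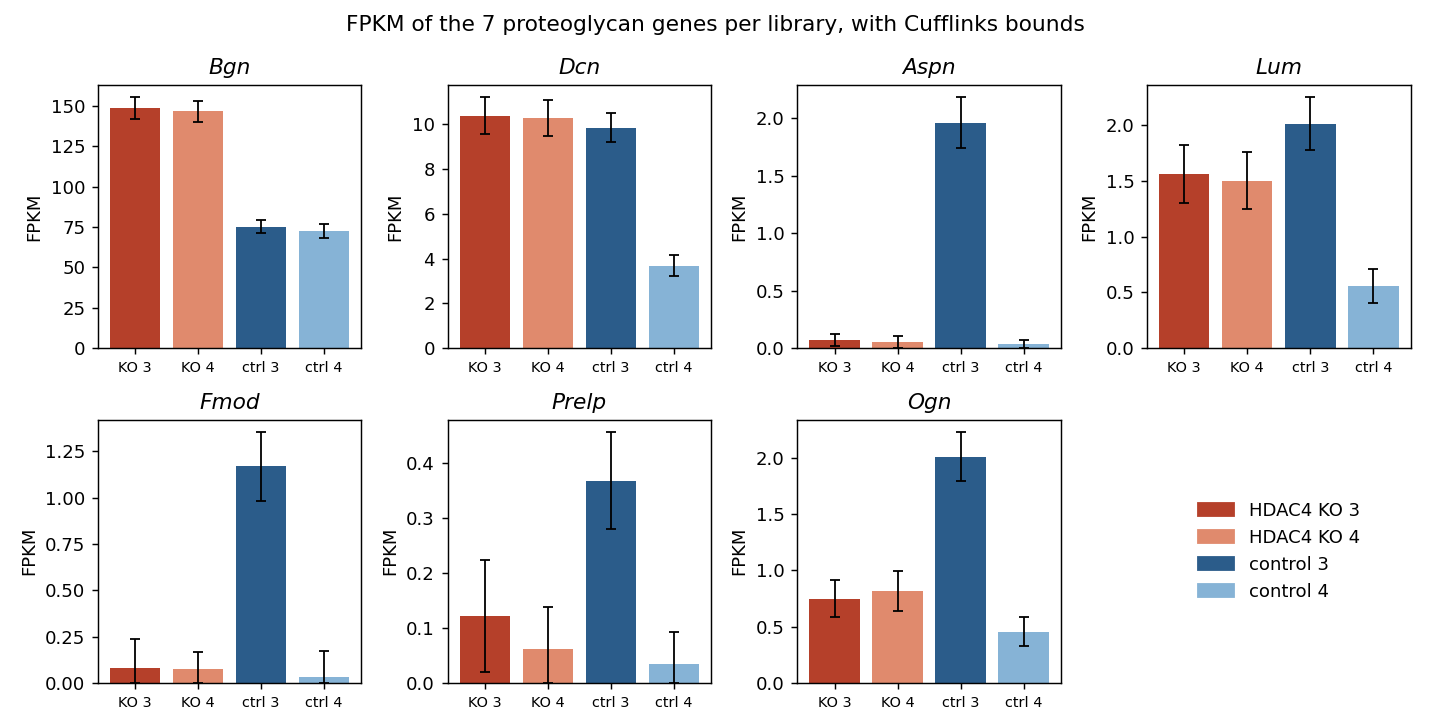
FPKM of each gene in HDAC4 KO 3, HDAC4 KO 4, control 3 and control 4 (bars, linear axes that start at 0 and differ between panels), with the Cufflinks bounds as error bars. Bgn is level within each group at 148.6 and 146.7 in HDAC4 KO against 75.3 and 72.6 in control, whereas Aspn, Fmod, Prelp, Ogn and Lum are highest in control 3.

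Dcn encodes decorin, the closest relative of biglycan, which regulates fibril width and binds TGF-beta (chromosome 10, 97479500 to 97518162, plus strand). It was at 10.4 and 10.3 FPKM in HDAC4 KO 3 and 4, against 9.86 and 3.69 FPKM in control 3 and 4. Both HDAC4 KO libraries were above both controls, but control 3 lay inside the bounds of the HDAC4 KO values (9.48 to 11.2 FPKM), and control 4 was the library that stood low. The log2 difference was 0.67 ± 0.41 (SE), with an adjusted p of 0.513 by limma among all genes and 0.366 among protein-coding genes. It was 1.27 without control 3 and 0.06 without control 4. So the size of the Dcn difference was set by which control was kept.

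Aspn encodes asporin, a class I member without the usual glycosaminoglycan attachment site that inhibits TGF-beta (chromosome 13, 49544443 to 49567557, plus strand). It was at 0.0698 and 0.0562 FPKM in HDAC4 KO 3 and 4, against 1.96 and 0.0325 FPKM in control 3 and 4. Control 3 alone carried it, at 60.2 times the level of control 4 and 31.1 times the mean of HDAC4 KO. In control 4 the lower bound reached 0. The mean over the 4 libraries was under 1 FPKM, so Aspn was outside the main test, and in a fit of all genes with any expression its log2 difference of -0.72 ± 0.57 (SE) had an adjusted p of 0.697 by limma. Without control 3 the difference was 0.04.

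Lum encodes lumican, a class II keratan sulfate proteoglycan that spaces collagen fibrils (chromosome 10, 97565501 to 97572703, plus strand). It was at 1.565 and 1.504 FPKM in HDAC4 KO 3 and 4, against 2.01 and 0.561 FPKM in control 3 and 4. The HDAC4 KO values lay between those of the controls, so the groups overlapped. The log2 difference was 0.22 ± 0.36 (SE; limma adjusted p = 0.794), and it changed sign with the control that was kept, from 0.70 without control 3 to -0.25 without control 4.

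Fmod encodes fibromodulin, a class II member abundant in tendon (chromosome 1, 134037254 to 134048277, plus strand). It was at 0.0787 and 0.0722 FPKM in HDAC4 KO 3 and 4, against 1.17 and 0.0338 FPKM in control 3 and 4. Control 3 was again the only library with a clear signal, since the lower bound was 0 in the other 3. Its ratio to control 4 was 34.5.

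Prelp encodes a class II member with a basic, heparin-binding end in place of the usual one (chromosome 1, 133910304 to 133921414, minus strand). It was at 0.121 and 0.0622 FPKM in HDAC4 KO 3 and 4, against 0.367 and 0.0335 FPKM in control 3 and 4. The lower bound of control 3 (0.279 FPKM) lay above the upper bounds of the other libraries. Fmod and Prelp stayed under the minimum mean, and without that filter their log2 differences were -0.48 ± 0.40 and -0.12 ± 0.15 (SE; limma adjusted p = 0.705 and 0.790).

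Ogn encodes osteoglycin, also named mimecan, a class III member (chromosome 13, 49608071 to 49624500, plus strand). It was at 0.748 and 0.814 FPKM in HDAC4 KO 3 and 4, against 2.01 and 0.456 FPKM in control 3 and 4. The HDAC4 KO libraries lay between the controls and closer to control 4. Ogn passed the minimum mean only through control 3, so its log2 difference of -0.23 ± 0.39 (SE) is given with no test. It was 0.29 without control 3 and -0.76 without control 4. Cenpp, a centromere protein gene on the opposite strand, overlaps Ogn and Aspn, and the sources used here do not state whether strand was used in counting. Cenpp differed little between libraries (7.46 and 8.36 in HDAC4 KO against 7.38 and 7.16 in control, its power of 10 not fixed).

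Of the 7 genes, 4 passed the minimum mean of 1 FPKM (Bgn, Dcn, Lum and Ogn), 2 of them (Lum and Ogn) with control 3 as their highest library. Leaving out Bgn and Ogn, neither of the other 2 (Dcn and Lum) was called by limma, with genes of every type (0.00839% of genes called, 1 of 11918) or with protein-coding genes alone (0.641%, 67 of 10448, with 0.593% higher and 0.0479% lower in HDAC4 KO), and 0 of the 2 had an unadjusted p under 0.05 (14.3% of all genes). The single gene called, Gm23937, is named after its values were seen, and was listed at 0 in both controls. HDAC4 KO and control libraries did not overlap for 2 of the 7 genes, Bgn and Dcn, both higher in HDAC4 KO, while 48.6% of all genes tested did not overlap (30.9% higher and 17.7% lower in HDAC4 KO).

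Set against control 4 alone, all 7 genes were higher in HDAC4 KO, with ratios of the HDAC4 KO mean to control 4 of 1.71 for Ogn, 1.94 for Aspn, 2.03 for Bgn, 2.23 for Fmod, 2.74 for Lum and Prelp and 2.80 for Dcn. Set against control 3 alone, Bgn (1.96) and Dcn (1.05) were higher and the other 5 lower, down to 0.0322 for Aspn. Bgn was therefore the only one of the 7 whose ratio was nearly the same against either control. Since a single control remains in each case, these are ratios between libraries with no test.

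**Figure D2:**
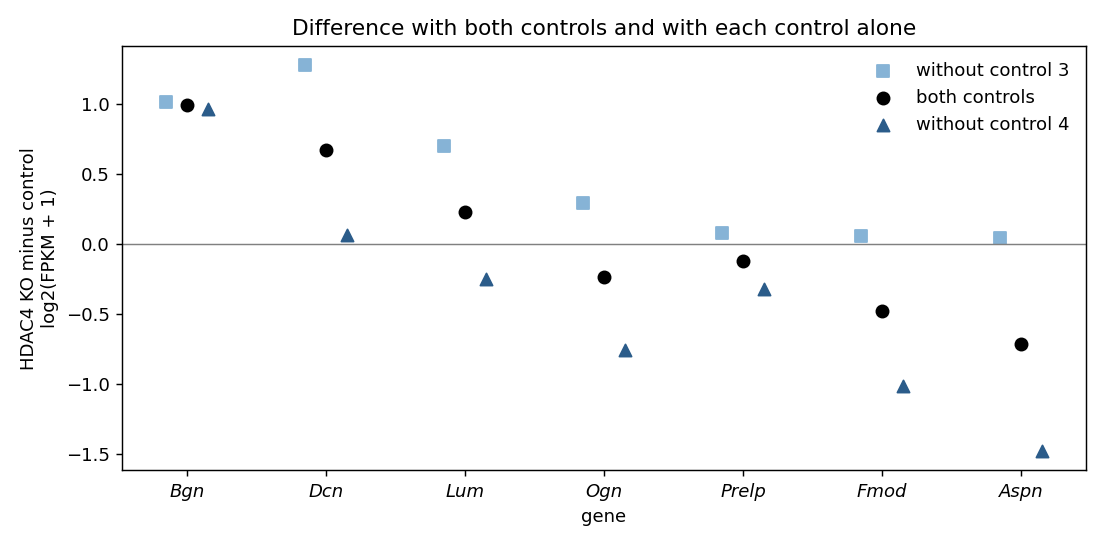
Log2 difference of FPKM + 1, HDAC4 KO minus control, for each gene (x axis), with both controls (circles), without control 3 (squares) and without control 4 (triangles). The 3 marks of Bgn lie together at 0.96 to 1.01, those of Dcn spread over 0.06 to 1.27, and those of the other 5 genes fall on both sides of 0.

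Between the controls, all 7 genes were lowest in control 4 of the 4 libraries (25.7% of all genes tested were), and 5 were highest in control 3 (24.2% of all genes tested), each of these 5 having both (8.64% of all genes tested). Among genes with a mean of 0.1 to 1 FPKM, the range of Aspn, Fmod and Prelp, the shares were 35.4% and 24.4%. In 4 of the 7 (Aspn, Fmod, Prelp and Ogn) control 3 was at least 2 times the HDAC4 KO mean, as for 2.44% of genes tested and 11.9% of those with a mean of 0.1 to 1 FPKM. Control 3 thus held most of the FPKM of Aspn, Fmod and Prelp summed over the libraries. On the log2(FPKM + 1) scale, control 3 minus control 4 was 1.21 for Dcn and 0.95 for Lum, and 1.49% and 1.79% of the genes tested had a larger gap. For Ogn, which passed the minimum mean through control 3, it was 1.05. For Bgn it was 0.05. Between the HDAC4 KO libraries the same gap was 0.01 for Dcn, 0.03 for Lum, 0.02 for Bgn and -0.05 for Ogn, against -0.37 to 0.39 (5th to 95th percentile) over all genes. The HDAC4 KO libraries were thus close to each other in these genes. The controls were close in Bgn but not in Dcn, Lum or Ogn.

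**Figure D3:**
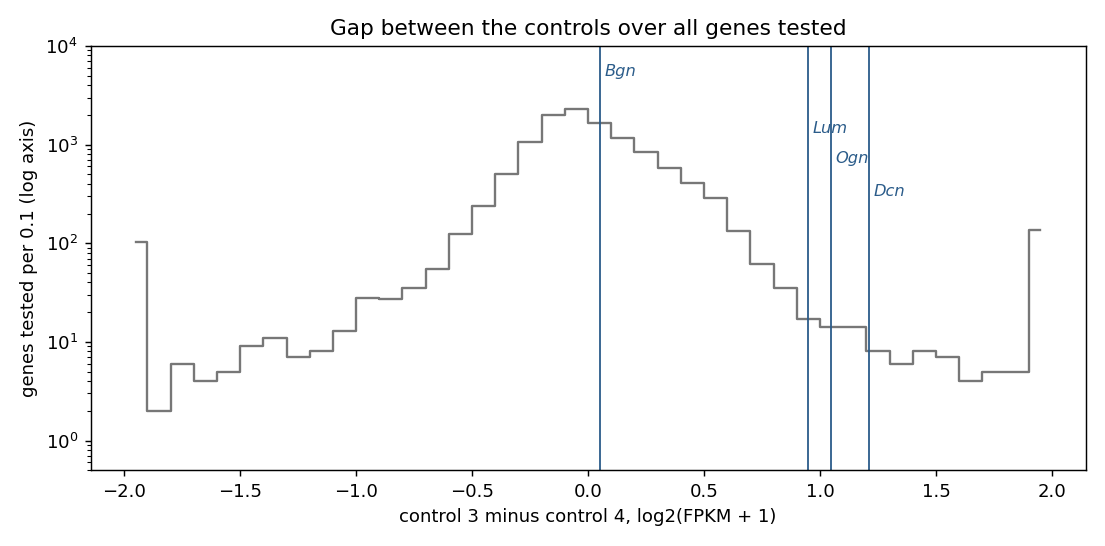
Number of genes tested (log axis) by their gap between control 3 and control 4 in log2(FPKM + 1), in steps of 0.1, with the outermost steps holding all larger gaps, and with vertical lines at the 4 tested members. Bgn at 0.05 lies in the middle of the 11918 genes, while Lum, Ogn and Dcn at 0.95 to 1.21 lie in the upper tail, Ogn having passed the minimum mean through control 3.

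Markers of other cell types also differed between the controls. Of all genes tested, 24.2% were highest in control 3. Myofibre markers were highest in control 3 in 8 of 8 genes with a value, and the 6 whose level was fixed summed to 79.6 and 172 FPKM in HDAC4 KO 3 and 4, against 1472 and 119 FPKM in control 3 and 4, led by the fast myosin light chain Mylpf. Endothelial markers were highest in control 3 in 6 of 8, and the 7 of fixed level summed to 10.8 and 11.3 FPKM in HDAC4 KO against 14.1 and 6.49 FPKM in control 3 and 4. Fibro-adipogenic progenitor markers were highest in control 3 in 6 of 12, and the 8 of fixed level summed to 449 and 511 FPKM in HDAC4 KO against 480 and 564 FPKM in control 3 and 4. Most of that sum was Serpinf1, and the lower members of the list went different ways. Clec3b, a marker of connective tissue fibroblasts, was at 0.191 and 0.347 FPKM in HDAC4 KO, against 2.19 and 0.223 FPKM in control 3 and 4, and Dpp4, of interstitial progenitors, was at 0.309 FPKM in control 3 and at most 0.0041 FPKM in the other libraries. Pdgfra, the receptor that defines these progenitors, was instead at 1.33 and 1.299 FPKM in HDAC4 KO against 0.907 and 0.435 FPKM in control 3 and 4, and the chemokine gene Cxcl14 at 1.56 and 1.36 FPKM against 0.543 and 0.494 FPKM.

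Tendon cell markers were highest in control 3 in 4 of 9, against 24.2% of all genes tested. The 7 of fixed level summed to 3.82 and 3.33 FPKM in HDAC4 KO, against 4.53 and 1.45 FPKM in control 3 and 4. Tnmd, a membrane protein of tendon cells, was at 0.0820 and 0.0827 FPKM in HDAC4 KO against 0.757 and 0.0131 FPKM in control 3 and 4. Like Aspn and Fmod, Tnmd was highest in control 3 and lowest in control 4. Scx, of the same list but outside the sum, was the reverse, lowest in control 3 and highest in control 4. Of the 9 markers, 4 were higher in HDAC4 KO with no overlap between the groups (Mkx, Angptl7, Tppp3 and Cilp2). Over all genes tested, this share was 30.9%. Mkx, a transcription factor of tendon, was at 0.968 and 0.934 FPKM in HDAC4 KO against 0.779 and 0.4997 FPKM in control 3 and 4. Angptl7 was at 0.841 and 0.659 FPKM in HDAC4 KO against 0.354 and 0.309 FPKM in control 3 and 4. Blood cell markers were highest in control 3 in 3 of 8, and the 7 of fixed level summed to 3.85 and 5.02 FPKM in HDAC4 KO against 24.2 and 3.64 FPKM in control 3 and 4. In control 3, 21.0 FPKM of this came from the haemoglobin gene Hbb-bs, while Ptprc, which encodes CD45, was at most 0.0275 FPKM in any library. Lyz2, the lysozyme gene of myeloid cells, had a log2 difference of 1.01 (limma adjusted p = 0.228 among all genes and 0.0700 among protein-coding genes). The part of these cells in the values of Dcn, Lum, Ogn, Aspn, Fmod and Prelp was not tested.

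Some genes of other marker lists had a split between the groups like that of Bgn. Gsn, which encodes the actin-severing protein gelsolin and is a fibro-adipogenic progenitor marker, rose by 1.09 ± 0.11 in log2 among protein-coding genes (SE; limma adjusted p = 0.0163, and 0.0834 among all genes). Cd34, Ly6a and Serpinf1, of the same list, had differences of 0.60, -0.24 and -0.12 (limma adjusted p = 0.239, 0.684 and 0.705). Of the 12 genes of that list, 5 had both HDAC4 KO libraries above both controls, as did 30.9% of all genes tested. All 9 glial markers had both HDAC4 KO libraries above both controls, as did 30.9% of all genes tested, and the 7 of fixed level summed to 25.6 and 21.4 FPKM in HDAC4 KO against 12.7 and 11.9 FPKM in control. Sox10, a transcription factor of Schwann cells, was at 4.29 and 3.08 FPKM in HDAC4 KO, against 1.23 and 0.932 FPKM in control. Of the 8 smooth muscle and pericyte markers, 4 were higher in both HDAC4 KO libraries (30.9% of all genes tested were), with log2 differences of 1.31 for the actin gene Acta2 and 1.34 for Tagln, which encodes the actin-binding protein transgelin (limma adjusted p = 0.203 and 0.145 among all genes, 0.0470 and 0.0275 among protein-coding genes). The 4 of fixed level, all low, summed to 1.92 and 2.08 FPKM in HDAC4 KO against 2.40 and 0.878 FPKM in control 3 and 4, with HDAC4 KO between the controls. Notch3, of the smooth muscle and pericyte list, had a log2 difference of -0.12 (limma adjusted p = 0.810). The part of these markers' cells in the Bgn values was not tested.

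Summed over the 7 genes, the FPKM came to 161.6 and 159.5 in HDAC4 KO 3 and 4, against 92.7 and 77.4 in control 3 and 4. Bgn made up 92.0% of the sum in both HDAC4 KO libraries, against 81.3% in control 3 and 93.8% in control 4. Without Bgn, the sum was 12.98 and 12.80 FPKM in HDAC4 KO, against 17.4 and 4.81 FPKM in control 3 and 4, so that HDAC4 KO lay between the controls. The ratio of Bgn to Dcn was 14.3 in both HDAC4 KO libraries, against 7.64 in control 3 and 19.7 in control 4. The order Bgn, Dcn, Lum and Ogn held in all 4 libraries. Lum and Ogn could not be separated in the controls, where their bounds overlapped, and Prelp, Fmod and Aspn changed places between libraries.

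Most of the genes sit in clusters with other genes of the family. On chromosome 13 (GRCm38, GENCODE M21) Ecm2, Aspn, Omd and Ogn follow one another on the plus strand, 11.7, 14.9 and 15.2 kb apart, and 4 of the 4 were highest in control 3. On chromosome 10 Dcn is followed by Lum, Kera and Epyc at 47.0, 34.2 and 30.4 kb, and 3 of the 4 were highest in control 3, Dcn being the exception. On chromosome 1 Fmod and Prelp were highest in control 3, and Optc, next to Prelp, was not. Over all genes tested, 24.2% were highest in control 3, as were 24.4% of those with a mean of 0.1 to 1 FPKM. The counts rest in part on neighbours of very low level, so no pattern of the clusters is read from them. Of these neighbours, Kera, which encodes the cornea and tendon proteoglycan keratocan, was at 0 and 0.0116 FPKM in HDAC4 KO against 0.239 and 0 FPKM in control 3 and 4. Omd, Epyc, Optc and Ecm2 were at most 0.116 FPKM in any library. These neighbours were thus near the limit of detection apart from Kera in control 3.

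Of the other 11 genes of the family, 3 passed the minimum mean. Among these 3, 0 were called by limma (0.00839% of all genes were) and 1 had an unadjusted p under 0.05 (14.3% of all genes). The 3 had a median log2 difference of 0.12, against 0.04 for all genes tested. Tsku, which encodes tsukushi, a secreted class IV member that binds BMP and Wnt pathway proteins, was at 10.7 and 10.6 FPKM in HDAC4 KO, against 6.996 and 8.244 FPKM in control 3 and 4. It was higher in both HDAC4 KO libraries, as were 30.9% of all genes tested, with a log2 difference of 0.44 ± 0.12 (SE; limma adjusted p = 0.266). Chadl and Podnl1 had differences of 0.12 and -0.06 (limma adjusted p = 0.672 and 0.886). Podn, which encodes podocan, was at 0.602 and 0.236 FPKM in HDAC4 KO against 0.189 and 0.130 FPKM in control 3 and 4. Chad, which encodes the cartilage protein chondroadherin, was at 0.107 and 0.0210 FPKM against 0.352 and 0.0630 FPKM, highest in control 3, and Nyx was at most 0.0199 FPKM.

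No enzyme that builds the chains on these cores passed the test between the groups. Of the enzymes that make the linker to the core protein, 5 of 6 were tested, with 2 above 0 and a median log2 difference of -0.07. Xylt2, a xylosyltransferase that starts the chain, was at 9.01 and 8.03 FPKM in HDAC4 KO against 6.57 and 6.95 FPKM in control, a difference of 0.29 ± 0.11 (SE; limma adjusted p = 0.348). B4galt7, which adds the first galactose, was at 20.4 and 18.4 FPKM against 14.5 and 17.1 FPKM (limma adjusted p = 0.393). For both, the HDAC4 KO libraries lay above the controls, as for 30.9% of all genes tested, without passing the test. B3galt6 and B3gat3 had log2 differences of -0.25 and -0.12 (limma adjusted p = 0.452 and 0.705).

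Of 16 enzymes that extend, epimerise or sulfate chondroitin and dermatan chains, 13 were tested, 10 lay above 0 and the median was 0.08. Chpf2 and Chsy1, which polymerise chondroitin, had differences of 0.32 and -0.24, and the sulfotransferases Chst12 and Chst11 had 0.24 and -0.13 (limma adjusted p of 0.465 to 0.647). The named enzymes of this list lay on both sides of 0. Of 8 keratan sulfate enzymes 4 were tested, with 3 above 0 and a median of 0.17. B3gnt7 was at 1.501 and 1.967 FPKM in HDAC4 KO against 0.925 and 1.28 FPKM in control, and B4galt1 at 12.0 and 12.3 FPKM against 10.2 and 10.7 FPKM (limma adjusted p = 0.459 and 0.431). For either gene both HDAC4 KO libraries lay above both controls, as for 30.9% of all genes tested. Chst2, a sulfotransferase, had a difference of -0.15 (limma adjusted p = 0.599). In each of these 3 enzyme lists, limma called 0 genes among all genes (0.00839% called) or among protein-coding genes (0.641% called). Likewise 0 had an unadjusted p under 0.05, against 14.3% of all genes.

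Receptors and ligands of the cores were examined next. Of 15 receptors and ligands with a value, 13 were tested, 10 lay above 0, and the median log2 difference was 0.42, against 0.04 for all genes. Among all genes limma called 0 of them, with 6 higher and 0 lower at an unadjusted p under 0.05 (10.8% and 3.58% of all genes), and among protein-coding genes it called P2rx7 and Ctgf (0.641% of those genes). P2rx7, an ATP-gated channel through which biglycan is known to act in macrophages, was at 3.37 and 2.75 FPKM in HDAC4 KO, against 1.05 and 0.978 FPKM in control. Both HDAC4 KO libraries stood well above both controls. P2rx7 rose by 1.01 ± 0.15 in log2 in the protein-coding test (SE; limma adjusted p = 0.0470, and 0.203 among all genes). Ctgf, a matricellular growth factor that decorin binds, rose by 1.18 ± 0.13 in the same test (SE; limma adjusted p = 0.0256, and 0.129 among all genes). The receptor tyrosine kinase gene Met and the growth factor gene Tgfb3 had differences of -0.10 and -0.20 (limma adjusted p = 0.724 and 0.566).

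Proteases that cut the cores or their propeptides lay above 0 in 7 of the 7 tested, of 13 with a value, with a median log2 difference of 0.74. Among all genes limma called 0, with 5 higher and 0 lower at an unadjusted p under 0.05 (10.8% and 3.58% of all genes), and among protein-coding genes it called Mmp2 and Mmp9 (0.641% of those genes). Mmp2 and Mmp9, the gelatinases, rose by 1.36 ± 0.16 and 1.22 ± 0.15 in that test (SE; limma adjusted p = 0.0275 and 0.0296, and 0.145 and 0.153 among all genes). Bmp1, which removes the propeptide of biglycan, had a difference of 0.27 ± 0.10 (SE; limma adjusted p = 0.349). Of the 13 with a value, 1 was highest in control 3, and 0 of the 7 tested were, against 24.2% of all genes tested.

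**Figure D4:**
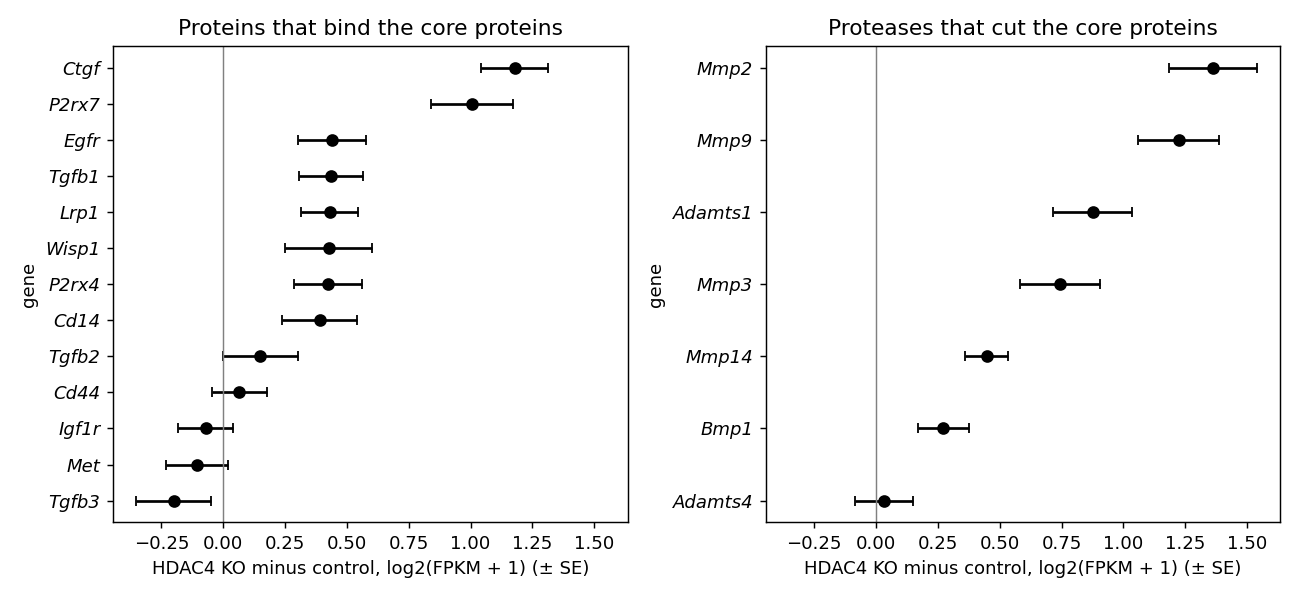
Log2 difference of FPKM + 1, HDAC4 KO minus control (points, bars ± SE of the limma fit of all genes), for the tested genes that bind the core proteins (left) and those that cut them (right). Ctgf and P2rx7 lie at 1.18 and 1.01, and Mmp2 and Mmp9 at 1.36 and 1.22. The power of 10 was not fixed for Ctgf, several other genes on the left and all genes on the right.

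The genes whose profile over the 4 libraries lay nearest to that of Bgn, by root mean square distance of log2(FPKM + 1) after centring on the mean, were Plekhh2 (0.02), Ccl9 (0.05), Aatk (0.05) and Gm17035 (0.05), among 11917 compared. Aatk, a kinase gene, was at 2.02 and 2.25 FPKM in HDAC4 KO against 0.633 and 0.611 FPKM in control. Like Bgn, Aatk lay higher in both HDAC4 KO libraries and close together within each group. This likeness follows from its choice by distance. Ranked by the same distance, Dcn came 3936th and Lum 6243rd, so neither was near the profile of Bgn. Ogn came 11052nd, but it passed the minimum mean only through control 3, so nothing is read from its rank. With 4 libraries, the distance is a description only.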

How the data were processed

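RNA of 2 HDAC4 KO and 2 control libraries was prepared with a TruSeq stranded mRNA kit. Per the submitters' processing notes and the study's methods, CASAVA 1.8.2 produced the reads, ERNE and cutadapt trimmed them, and they were aligned to GRCm38 with TopHat and quantified with Cufflinks, and Cuffdiff pooled the replicates. The authors deposited FPKM with bounds per gene and library, and a table of pooled group FPKM. Its columns of the authors' own comparison (fold change, test statistic, p and q) were not used.

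The decimal point was missing from 11652 to 11903 of 43496 deposited FPKM entries per library. It was put back where the estimate lay midway between its bounds (tolerance 4e-05), where bound widths matched between libraries (limit 0.25 in log10) and where the authors' pooled FPKM was met (tolerance 0.005 in log2). Of 43379 genes, 25184 were kept, 17801 were at 0 in all libraries, and the points of 78, 312 and 4 could not be placed (no midpoint, no match, several ratios); a further 18 had a failed estimate and 40 several places. For 8115 genes a common power of 10 was not fixed. It was set from bound widths, right for 83.2% of 3073 known genes, and levels of such genes are given only for Hdac4 and Cenpp. All 7 proteoglycan genes had fixed levels.

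Genes averaging at least 1 FPKM were compared, HDAC4 KO minus control, with limma 3.58.1 (R 4.3.3, trended prior) on log2(FPKM + 1), which understates changes of low genes, with Benjamini-Hochberg adjustment and a threshold of 0.05. The test was checked on simulated data. An exact permutation test of 2 against 2 cannot go below p = 0.333 and was not used. Tables were made with Python 3.11.15 and pandas 2.3.3. Named genes were the 7 members, every other gene of the family, Hdac4, up to 4 tested genes of each list (the 2 smallest p in each direction; fewer are printed for the marker lists) and the 5 nearest Bgn, of which 1 is not reported here; markers of other cell types named for their levels in control 3 were picked with their values known. The members and lists were chosen with earlier results of these data known. Alternatives were the pseudocount, the filter, median-ratio scaling, protein-coding genes alone, the replicate number as a block, and each library left out. The lost points of Tlr4 were not placed, Mmp7 was listed at 0, and Cdh15, Acta1 and Adgre1 were not analysed here.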

Additional observations from a re-analysis of the deposited data

How the results depend on the processing

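The number of genes called by limma was 1 with the settings used, without the filter, with median-ratio scaling and with the crossed replicate block, a pairing added after seeing the data because the deviations of equally numbered libraries had a correlation of -0.11. It was 6 with a pseudocount of 0.1 (1 higher and 5 lower), 67 among protein-coding genes alone (62 higher and 5 lower), 2 with the replicate block (Gm23937 higher and Gm15487 lower, named after their values were seen) and 0 to 0 with any library left out (smallest adjusted p 0.0760 to 0.105). The labels do not say that the replicate numbers pair libraries. At an unadjusted p under 0.05, 1282 genes were higher and 427 lower, against 824 and 825 with median-ratio scaling, which moved the median difference to -0.03, against 0.04. The Bgn difference was 0.96 to 1.01 in 9 of 10 alternatives and 0.90 with median-ratio scaling. Dcn kept its direction in 10 of 10 (0.06 to 1.27, adjusted p 0.207 to 0.832). Lum turned to -0.25 without control 4 (adjusted p = 0.403) and was 0.18 to 0.70 in the other 9. Ogn was -0.76 to -0.21 in 9 and fell under the filter without control 3. Aspn, Fmod and Prelp passed only without the filter. The cause of these moves was not tested. With 2 libraries per group, FPKM in place of counts and a control pair that differed in the members other than Bgn, small differences could not be resolved.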
